A study of Mus musculus with 4 samples.

Results

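The genes examined here are 8 genes known from glial cells, and above all from the precursors of Schwann cells, the glia of peripheral nerves. They are *Fabp7*, *Adgrg6*, *Erbb3*, *Gpr17*, *Cdh19*, *Mbp*, *Pmp22* and *Cnp*. Their probes were found by gene symbol among the 29924 gene names on the array. The 8 genes themselves were proposed with earlier results of these arrays known. A total of 11 probes read them, and 10 of these probes, at least 1 for each gene, were bright enough to be tested together with those of all 21042 genes tested.

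Transcripts were measured on 4 arrays at E14.5, when most hair cells and supporting cells of the mouse cochlea have yet to differentiate. Each array compared RNA from 1 pool of *Sox2-Tbx2LOF* cochlear ducts with RNA from 1 pool of control ducts, in the 2 dyes Cy3 and Cy5. The labels give the mutants as Sox2(creERT2);Tbx2(fl/fl) and the controls as Tbx2(fl/n.d.), both on the NMRI strain. The methods call the controls cre-negative, and the described matings also bring in the R26 mTmG reporter. All dams received 4 mg of tamoxifen by mouth at E12.5, so mutants and controls share this treatment. Tamoxifen activates the CreERT2 recombinase, which is made from the *Sox2* locus, and *Tbx2* is deleted only in cells that use this locus and in their descendants. *Sox2* is a gene of the prosensory epithelium and also of peripheral glial precursors. Since the controls carry no *CreERT2*, an effect of the changed *Sox2* allele and an effect of the loss of *Tbx2* cannot be told apart. The pools on arrays 1 and 2 came from females and those on arrays 3 and 4 from males, and within each sex the dyes were swapped, with the mutant in Cy5 on array 1 and array 3 and in Cy3 on the other two. The methods state that the spiral ganglion, where most glia of the cochlea lie, was removed during dissection.

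Schwann cell precursors arise from the neural crest, travel along growing nerves and depend on neuregulin, a ligand on axons that they sense through the receptors ERBB2 and ERBB3. They later become Schwann cells, which wrap axons in myelin and then make its structural proteins in large amounts. Supporting cells of the organ of Corti are epithelial cells, but they share several genes with glia, so that a transcript such as *Fabp7* can come from either source in a whole duct.

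On these arrays 4 of the 8 genes were lower in *Sox2-Tbx2LOF* cochlear ducts and 0 were higher. *Fabp7* fell to 48.9% of the control level, *Gpr17* to 56.6%, *Adgrg6* to 63.9% and *Cdh19* to 64.5%. *Mbp*, *Erbb3*, *Pmp22* and *Cnp* did not pass the test, with levels of 93.3% to 94.3% of the control. A call needed a fold change of at least 1.5 as well as an adjusted p below 0.05 from limma, with the adjustment made over all genes. By this rule 0.309% of all genes tested were called lower and 0.133% higher. At an adjusted p below 0.05 alone, which the same 4 genes passed, 2.92% of all genes were lower and 2.26% higher. The median log2 ratio of mutant over control was −0.37 over the 8 genes and 0.0024 over all genes. The genes were proposed with results of these arrays already known, so their count is a description and not independent evidence. In whole ducts, fewer cells of a type and less RNA in each cell cannot be told apart.

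**Figure D1:**
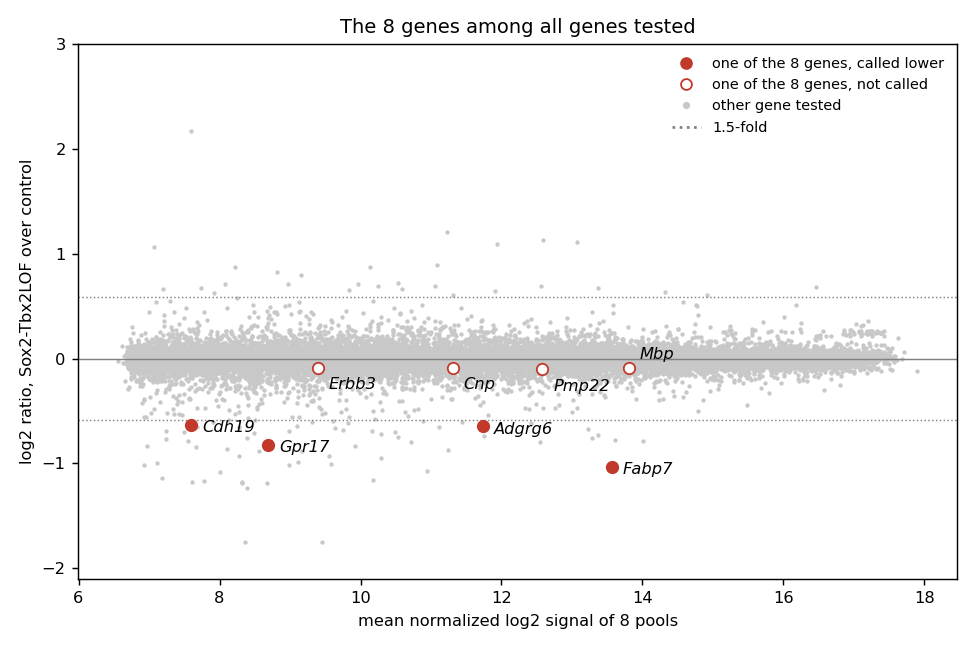
Log2 ratio of *Sox2-Tbx2LOF* over control (y axis) against the mean normalized log2 signal of the 8 pools (x axis) for every gene tested, with the 8 glial genes in red (filled where called lower). *Fabp7*, *Gpr17*, *Adgrg6* and *Cdh19* lie below the dotted line of a 1.5-fold fall, and the other 4 lie just below 0.

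The labels were first checked on the modified genes. *Tbx2* was lower in the mutant pool on 4 of 4 arrays, but its log2 ratio of −0.12 ± 0.098 (SD, n = 4) did not pass (adjusted p = 0.124 from limma), and whether its probe lies in the deleted stretch was not analysed here. *Esr1*, part of which is fused to the recombinase, was well above background in 4 of 4 mutant pools and in 0 of 4 control pools by 1 of its 4 probes, and the other 3 were not in any pool. None of the 8 genes lies on chromosome 3, which holds *Sox2*. *Cnp* and *Pmp22* share chromosome 11 with *Tbx2*, at a distance of 14.8 Mb and 22.7 Mb.

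*Fabp7*, *Adgrg6* and *Erbb3* are made by glia and also by the epithelium of the developing inner ear. The first of them encodes a fatty acid binding protein of radial glia, Schwann cell precursors and cochlear supporting cells, and was read by 1 probe on chromosome 10 of mm9 from 57508039 to 57508098. Its normalized log2 signal in the mutant pools of arrays 1 to 4 was 13.15, 12.79, 13.28 and 12.98. In the control pools of the same arrays it was 13.99, 13.89, 14.34 and 14.11. The highest mutant pool lay below the lowest control pool, so the groups did not overlap. The share of all genes or gene lists without such overlap is not given here, so this and the like statements below are descriptions. On the arrays in turn, the log2 ratio was −0.83, −1.09, −1.07 and −1.13. This amounts to a 2.04-fold fall, with a mean of −1.03 ± 0.14 (SD, n = 4, with an SE of 0.045 and an adjusted p of 5.0e-05 from limma), and *Fabp7* ranked at place 13 among all genes tested when ordered from the lowest ratio. The mean was −0.96 over the female and −1.10 over the male pools.

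**Figure D2:**
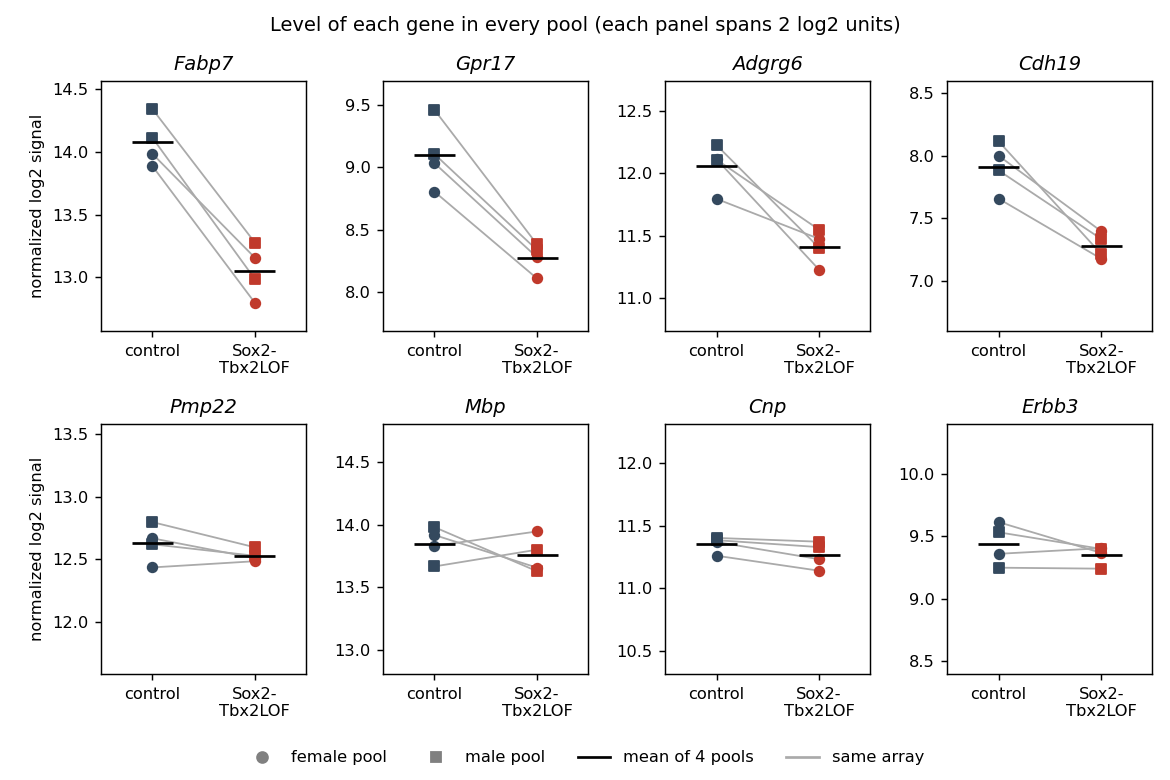
Normalized log2 signal (y axis) of each of the 8 genes in the 4 control and the 4 *Sox2-Tbx2LOF* pools, joined where both were hybridised to the same array, with circles for female and squares for male pools and a black line at the mean. The panels are ordered by ratio and span the same range, and in the upper row no mutant pool reaches a control pool.

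*Adgrg6* encodes an adhesion G protein-coupled receptor that Schwann cells need to start myelination and that the ear of fish needs to form its semicircular canals. The probe on chromosome 10 from 14122435 to 14122494 gave log2 signals of 11.23, 11.47, 11.40 and 11.55 in the mutant pools. The control pools had 12.11, 11.79, 12.22 and 12.11. Again the groups did not overlap. The log2 ratio on the arrays was −0.88, −0.32, −0.82 and −0.56, closest to 0 on array 2, with a mean of −0.65 ± 0.26 (SD, n = 4, with an SE of 0.046 and an adjusted p of 0.000262 from limma), a 1.56-fold fall. Much of this spread followed the dyes, since the mean was −0.85 where the mutant was labelled with Cy5 and −0.44 where it was labelled with Cy3. The fit holds the dye direction as a term of its own, and without this term the adjusted p was 0.0265 from limma. The female and male means were −0.60 and −0.69.

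The sequences before the start sites of both genes are shown because *Fabp7* and *Adgrg6* both fell and the protein deleted here, TBX2, is a T-box factor that binds DNA. RefSeq promoter sequences of build GRCm38.p6, another build than mm9 of the probes, were on hand for 4 of the 8 genes, *Fabp7*, *Adgrg6*, *Pmp22* and *Cnp*. The letters GTGTGA, a core of T-box sites, and ACAAAG and ACAATG, cores of SOX sites, were searched on both strands in the 250 bases before the start. Matches are in capitals, and none overlap.
Fabp7, chr10:57784673-57784922, plus strand: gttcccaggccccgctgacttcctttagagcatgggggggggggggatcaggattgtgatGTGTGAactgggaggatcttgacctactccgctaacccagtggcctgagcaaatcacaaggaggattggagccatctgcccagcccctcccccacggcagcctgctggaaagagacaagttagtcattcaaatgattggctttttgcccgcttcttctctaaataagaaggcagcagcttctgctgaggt
Adgrg6, chr10:14545037-14545286, minus strand: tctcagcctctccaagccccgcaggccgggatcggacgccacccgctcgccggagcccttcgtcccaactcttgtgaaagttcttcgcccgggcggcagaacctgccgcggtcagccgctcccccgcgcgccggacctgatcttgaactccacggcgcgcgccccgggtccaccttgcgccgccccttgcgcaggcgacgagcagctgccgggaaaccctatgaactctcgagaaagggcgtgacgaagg
The *Fabp7* window holds the T-box core once, beginning at position −190 from the start, and the *Adgrg6* window holds none of the 3 cores. Among all 32851 promoter windows of this length, 12.3% hold GTGTGA, 16.5% hold ACAAAG and 3512 windows hold ACAATG. Of the genes that did not pass the test, *Cnp* has ACAAAG at position −167, and none of the cores is in the windows before the 4 starts of *Pmp22*. These matches describe the letters of the windows and show no binding.

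*Erbb3*, the neuregulin receptor of Schwann cell precursors, was read by 1 probe on the minus strand of chromosome 10 from 128006424 to 128006483. The probe is shown because it fixes which end of the transcript was measured. Its letters run through 19 codons to the stop codon of the gene, here in capitals.
Erbb3 probe: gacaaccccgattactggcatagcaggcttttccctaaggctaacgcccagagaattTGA
Its log2 signal was 9.37, 9.40, 9.24 and 9.40 in the mutant pools and 9.61, 9.36, 9.25 and 9.53 in the control pools, and the groups overlapped. The log2 ratio was −0.25, 0.04, −0.01 and −0.13 on the 4 arrays. With a mean of −0.09 ± 0.13 (SD, n = 4, with an SE of 0.050 and an adjusted p of 0.400 from limma) the gene did not pass. *Erbb3* therefore differed from *Fabp7* and *Adgrg6*, of the same class, in that it was not called, but the difference between these genes was not tested.

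The other genes of neuregulin signalling were measured too. Of 20 genes listed from general knowledge, 19 were tested, and 0 of them passed an adjusted p below 0.05 in either direction. Their median log2 ratio was 0.02. *Nrg1*, the main axonal ligand, had a log2 ratio of 0.06 ± 0.12 and *Erbb2*, the partner receptor of ERBB3, one of 0.06 ± 0.086 (SD, n = 4; adjusted p = 0.384 and 0.474 from limma). The values farthest from 0 were those of *Nrg2*, a ligand, with 0.20 ± 0.13, and of *Egfr*, a related receptor, with −0.14 ± 0.21 (SD, n = 4; adjusted p = 0.0594 and 0.0691). *Nrg3* was not bright enough to be tested.

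*Pmp22* and *Cnp* are myelin genes that many other tissues also use. *Pmp22*, which encodes a membrane protein of compact peripheral myelin, was read by 2 probes on chromosome 11. The dimmer of them, from 62971862 to 62971921, is shown up to the stop codon, in capitals, since the 2 probes read different stretches of the transcript and did not move alike.
Pmp22 probe: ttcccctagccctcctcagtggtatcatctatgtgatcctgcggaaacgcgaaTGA
The brighter probe, from 62972989 to 62973048, stood for the gene. Its log2 signal was 12.51, 12.48, 12.59 and 12.53 in the mutant pools and 12.67, 12.43, 12.80 and 12.62 in the control pools. The ratio was −0.16, 0.05, −0.20 and −0.09, with a mean of −0.10 ± 0.11 (SD, n = 4, with an SE of 0.038 and an adjusted p of 0.196 from limma). The dimmer probe gave 0.10, −0.02, 0.17 and −0.14, with a mean of 0.03 ± 0.14. Neither probe separated the groups, and the sign of each array differed between the probes on 3 of 4 arrays.

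*Cnp* encodes a cyclic nucleotide phosphodiesterase of non-compact myelin. Its probe on chromosome 11 from 100442617 to 100442676 gave log2 signals of 11.14, 11.23, 11.33 and 11.37 in the mutant and 11.26, 11.37, 11.38 and 11.40 in the control pools. These ranges overlapped, although the mutant pool was the lower one on 4 of 4 arrays. The log2 ratio was −0.09 ± 0.051 (SD, n = 4, with an SE of 0.037 from limma), too small to pass over all genes (adjusted p = 0.249 from limma).

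**Figure D3:**
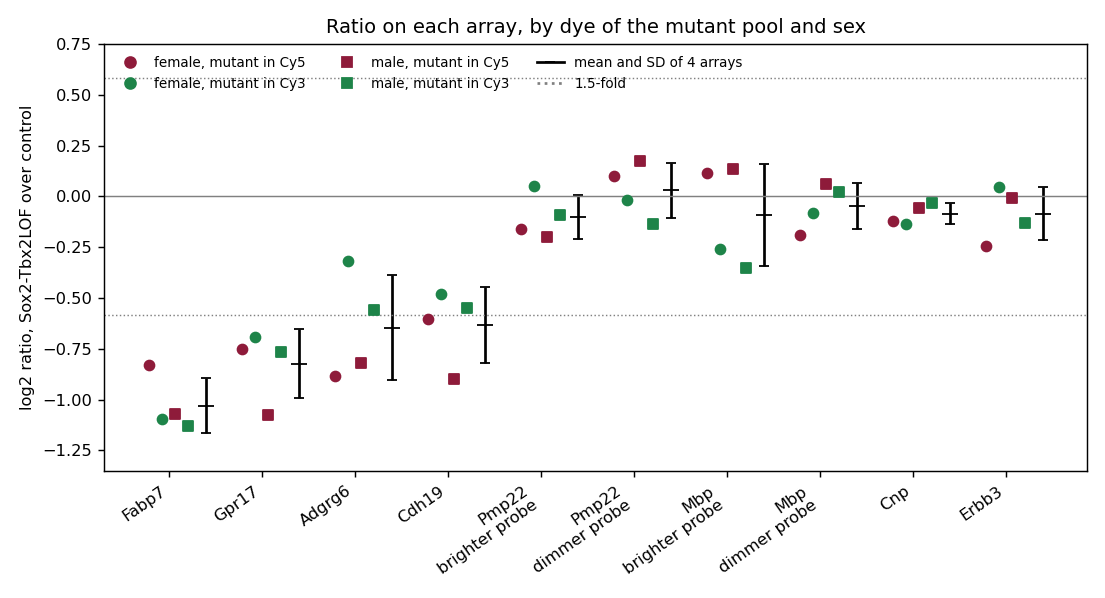
Log2 ratio of *Sox2-Tbx2LOF* over control on each array (y axis) for the 10 tested probes (x axis), coloured by the dye of the mutant pool and shaped by sex, with the mean and SD of the 4 arrays beside them. All points of the first 4 probes lie below 0, whereas the brighter *Mbp* probe changes sign with the dye.

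The third class holds *Gpr17*, *Cdh19* and *Mbp*, which are known mainly from glia and cells of the neural crest. *Gpr17* encodes a G protein-coupled receptor of oligodendrocyte precursors, the glia that make myelin in the brain and spinal cord, and was read on chromosome 18 from 32102750 to 32102809. Its log2 signal in the mutant pools was 8.28, 8.11, 8.38 and 8.34. In the control pools it was 9.03, 8.80, 9.46 and 9.10, above every mutant pool. The ratio was −0.75, −0.69, −1.08 and −0.77 on the 4 arrays. The mean of −0.82 ± 0.17 (SD, n = 4, with an SE of 0.054 and an adjusted p of 0.000194 from limma) corresponds to a 1.77-fold fall, with −0.72 in female and −0.92 in male pools.

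*Cdh19*, a cadherin of the neural crest and of Schwann cell precursors, was read by a dim probe on chromosome 1 from 112785846 to 112785905. Its log2 signal was 7.40, 7.18, 7.22 and 7.34 in the mutant pools and 8.0, 7.66, 8.12 and 7.88 in the control pools. The groups did not overlap, and every pool was well above background. The ratio was −0.60, −0.48, −0.90 and −0.55, with a mean of −0.63 ± 0.19 (SD, n = 4, with an SE of 0.051 and an adjusted p of 0.000459 from limma), a 1.55-fold fall. Since the offset of the background correction draws the ratios of dim probes towards 0, this size depended on the processing. With Agilent's processed signals the ratio was −1.08, and without array 3 it was −0.56 and under the minimum fold change.

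*Mbp*, which encodes a protein that compacts myelin, was read by 3 probes that did not tell the same story. Besides the myelin transcripts, the *Mbp* gene also gives longer transcripts, called Golli, from a start farther upstream, and these are found in cells without myelin. The bright probe lies on chromosome 18 from 82727929 to 82727988 and the files list 1 RefSeq transcript for it. Its log2 signal was 13.95, 13.66, 13.80 and 13.63 in the mutant pools and 13.83, 13.92, 13.67 and 13.98 in the control pools. The log2 ratio was 0.12, −0.26, 0.13 and −0.35, so it was above 0 on both arrays with the mutant in Cy5 and below 0 on both arrays with the mutant in Cy3. The mean ratio was −0.09 ± 0.25 (SD, n = 4), and this spread includes the swing with the dye. With the dye as a term the SE was 0.035 and the adjusted p 0.206 from limma. Without this term the ratio was the same and the adjusted p was 0.871 from limma. A dimmer probe upstream, from 82691469 to 82691528, gave −0.05 ± 0.11 (SD, n = 4). The remaining probe lies downstream of both, between 82742266 and 82744570, a stretch longer than the probe, so that it crosses at least 1 splice junction, and 4 RefSeq transcripts are listed for it. It was not well above background in any of the 8 pools, and no ratio is given for it. The gene thus had a bright signal, but not from the probe at its downstream end.

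By class, assigned from general knowledge, 2 of the 3 mainly glial genes were called lower, 2 of the 3 genes that the otic epithelium also makes, and 0 of the 2 genes of many tissues. The median log2 ratios of the 3 classes were −0.63, −0.65 and −0.09. A split by class did not separate the genes that fell from those that did not pass, since each of the first 2 classes held both kinds. In the mainly glial class the gene that did not pass was *Mbp*. Whether its bright probe reads myelin or Golli transcripts was not determined. The 4 genes that fell lay between −0.63 and −1.03, and the 4 others between −0.09 and −0.10. The interaction of genotype with sex passed for 0 of the 8 genes (adjusted p = 1.00 from limma for each), as for 0 of all genes tested, while 558 of all genes and 0 of the 8 had an unadjusted p below 0.05. The 2 arrays of each sex limit what this test could find.

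Other genes of Schwann cell precursors fell with them, but most of those listed were not called. Of 20 genes listed for these cells from general knowledge, none of them among the 8, 9 were lower and 1 was higher at an adjusted p below 0.05, and 4 were called lower. The median of the list was −0.09. *Foxd3*, a transcription factor of the neural crest, had log2 signals of 7.93, 7.53, 7.75 and 7.70 in the mutant pools and 9.11, 8.45, 9.20 and 8.86 in the control pools. Its log2 ratio was −1.17 ± 0.22 (SD, n = 4; adjusted p = 6.7e-05 from limma), lower on 4 of 4 arrays. *Dhh*, a hedgehog ligand that Schwann cell precursors secrete, had a log2 ratio of −0.88 ± 0.10, *Ngfr*, the low-affinity neurotrophin receptor, one of −0.74 ± 0.086, and *Ednrb*, the receptor for endothelins in the neural crest, had a ratio of −0.59 ± 0.098 (SD, n = 4; adjusted p = 7.9e-05, 0.000122 and 0.000359 from limma). A second, dimmer *Ednrb* probe gave −0.28, and the mean over both was under the minimum fold change. The paper uses the NGFR protein to mark pillar cells, which are supporting cells of the organ of Corti, so *Ngfr* is not a gene of glia alone.

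The defining transcription factor of the lineage, *Sox10*, did not pass. Its log2 signal was 15.30, 15.44, 15.34 and 15.33 in the mutant and 15.29, 15.51, 15.23 and 15.35 in the control pools, with a ratio of 0.01 ± 0.077 (SD, n = 4; adjusted p = 0.917 from limma). *Sox10* is also made by the otic epithelium and by melanocytes. Among the defining genes of these cells given here, *Foxd3* and *Dhh* were thus called lower and *Sox10* was not.

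**Figure D4:**
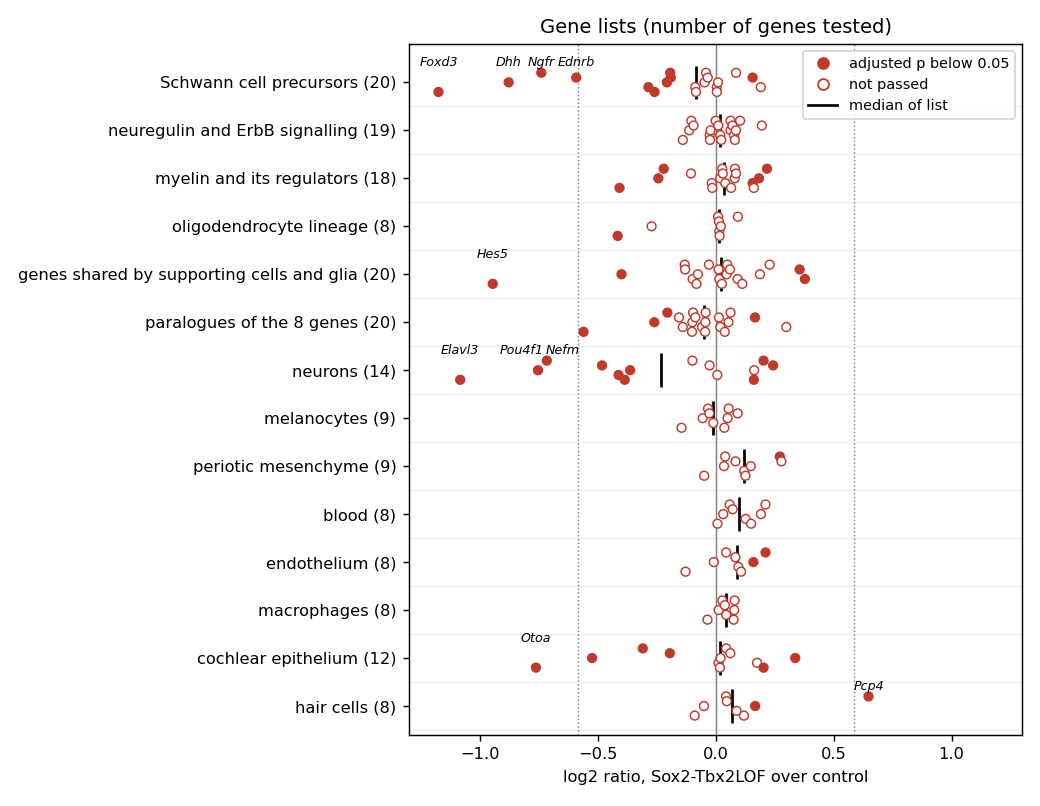
Log2 ratio of *Sox2-Tbx2LOF* over control (x axis) for the tested genes of each list (y axis), filled where the adjusted p was below 0.05, with the median of the list as a black line, the called genes named and 1.5-fold as dotted lines. Called falls lie in the lists of Schwann cell precursors, of genes shared by supporting cells and glia, of neurons and of cochlear epithelium.

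Myelin genes and their regulators showed small changes in both directions. Of 18 genes tested 3 were higher and 3 lower at an adjusted p below 0.05, 0 were called, and the median was 0.04. *Egr2*, a transcription factor that drives myelination in Schwann cells, was lower by a log2 ratio of −0.41 ± 0.23 and *Tspan2*, a tetraspanin of myelinating glia, by −0.24 ± 0.021 (SD, n = 4; adjusted p = 0.00949 and 0.00722 from limma). The second *Tspan2* probe gave −0.09. Of the oligodendrocyte lineage, to which *Gpr17* is usually assigned, 8 of 12 genes were bright enough to be tested. *Olig2*, *Nkx6-2*, *Enpp6* and *Tnr* were not. Only *Olig1*, a transcription factor of this lineage, passed, with −0.42 ± 0.27 (SD, n = 4; adjusted p = 0.000901 from limma) and −0.83 with Agilent's processed signals, and the next was *Sox8* with −0.27 ± 0.19 (adjusted p = 0.0553). The median of these 8 genes was 0.01, and apart from *Olig1* and *Sox8* their ratios lay between 0.01 and 0.09. Their mean log2 signal ranged from 10.33 to 10.41 in the mutant and from 10.42 to 10.47 in the control pools. This small gap includes the falls of *Olig1* and *Sox8* and does not describe the list as a whole.

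Genes shared by supporting cells and glia did not fall as a group either. Among the 20 genes tested, 2 were lower and 2 higher at an adjusted p below 0.05, with a median of 0.02. *Hes5*, a Notch target, was the 1 gene called, with a log2 ratio of −0.95 ± 0.38 (SD, n = 4; adjusted p = 0.00198 from limma), but not called when the channels were fitted unpaired (adjusted p = 0.145). *Ttyh1*, which encodes a membrane protein of glia, followed with −0.40 ± 0.17 (adjusted p = 0.000917). The higher genes were *Ptprz1*, a receptor phosphatase of glia, with 0.38 ± 0.11 (adjusted p = 0.00466) and *Hey2*, another Notch target, with 0.36 ± 0.033 (adjusted p = 0.000969). *Sox2* itself had a ratio of 0.01 ± 0.18 (adjusted p = 0.935).

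The closest relatives of the 8 genes were examined because a probe can read a related transcript. Of 20 relatives tested, 3 were lower and 1 was higher at an adjusted p below 0.05, 0 were called, and the median was −0.05. *Cdh20*, a cadherin on the same chromosome as *Cdh19*, was well above background in 4 of 4 control pools and in 0 of 4 mutant pools. Its fall is therefore a lower bound, at least 1.47-fold. Although counted among the 3 lower genes, *Cdh20* entered the test only through the control pools, so its p is not used here. *Cdh7*, the third of these cadherins, had a log2 ratio of 0.04 ± 0.095 (adjusted p = 0.662 from limma). Such a bound sets the mean control signal against the higher, on each array, of the mutant signal and the lowest signal of any probe well above background. The relative with the highest ratio was *Adgrg2*, with 0.30 ± 0.40 (adjusted p = 0.0692). *Fabp3*, *Fabp4* and *Fabp5* did not pass, with ratios between −0.06 and −0.16.

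Markers of other cells in the dissected ducts were counted beside these results. Of 14 neuronal genes tested, 7 were lower and 3 higher at an adjusted p below 0.05, and their median was −0.23. *Elavl3*, an RNA-binding protein of young neurons, had a log2 ratio of −1.08 ± 0.36, *Pou4f1*, a transcription factor of sensory neurons, one of −0.75 ± 0.13 and *Nefm*, a neurofilament subunit, one of −0.72 ± 0.21 (SD, n = 4; adjusted p = 0.000101, 0.000172 and 0.000397 from limma). The genes that were higher are *Syt1*, a calcium sensor of synaptic vesicles, with 0.24 ± 0.13, *Isl1*, a transcription factor that the cochlear epithelium also makes, with 0.20 ± 0.16, and *Ntrk3*, a neurotrophin receptor, with 0.16 ± 0.11 (SD, n = 4; adjusted p = 0.00788, 0.0245 and 0.0385 from limma). With the channels unpaired, *Elavl3* was not called (adjusted p = 0.101). The mean log2 signal of the neuronal list ranged from 10.45 to 10.59 in the mutant pools and from 10.65 to 10.84 in the control pools, so the groups did not overlap. *Neurod1* was not bright enough to be tested. The mean of the list of Schwann cell precursors ranged from 11.11 to 11.20 and from 11.32 to 11.40. Both gaps include the large falls of the called genes, and neither describes its list as a whole. The median log2 ratio of the Schwann cell precursor list was −0.09. How much remaining nerve tissue contributed to the falls of *Fabp7*, *Gpr17*, *Adgrg6* and *Cdh19* was not tested.

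The mean signals of the marker lists that follow overlapped between mutant and control pools. Melanocytes, which like Schwann cells come from the neural crest, had 0 of 9 genes past the threshold in either direction and a median of −0.01, with *Tyrp1* at −0.14 and *Pmel* at 0.09 farthest from 0. Blood and macrophages had 0 of 8 each, with medians of 0.10 and 0.04. *Hbb-y* and *Hba-a1* stood farthest from 0 among the blood genes, at 0.21 and 0.19, as did *C1qa* and *Mrc1*, both at 0.08, among those of macrophages. In periotic mesenchyme 1 of 9 genes was higher, *Col1a1* with 0.27 ± 0.12 (SD, n = 4; adjusted p = 0.00448 from limma), while *Col1a2* had 0.28 ± 0.21 (adjusted p = 0.0665). In endothelium 2 of 8 were higher, *Cldn5* with 0.21 and *Esam* with 0.16.

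In the cochlear epithelium, 4 of 12 genes were lower and 2 higher at an adjusted p below 0.05, with a median of 0.02. *Otoa*, which attaches the tectorial membrane to the inner part of the epithelium, had a log2 ratio of −0.76 ± 0.060 on its brighter and −0.49 on its dimmer probe, and *Lfng*, a modulator of Notch in the inner part of the duct, one of −0.52 ± 0.069 (SD, n = 4; adjusted p = 6.5e-05 and 0.00031 from limma). The higher epithelial genes were *Gata3*, a transcription factor of the duct, with 0.34 ± 0.13 (SD, n = 4; adjusted p = 0.00929) and *Isl1*, given above. Among hair cell genes, 2 of 8 were higher, *Pcp4* with 0.65 ± 0.11, which was called (though not with the channels unpaired, adjusted p = 0.227), and *Myo7a* with 0.17 ± 0.043 (SD, n = 4; adjusted p = 0.000178 and 0.0398). The arrays of whole ducts do not assign a transcript to the epithelium or to glia.

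Genes whose level over the 8 pools was most like that of each gene that fell were looked up among all genes tested. Pearson's r is given as a description, since the pools differ by genotype and by dye and pairs of pools share an array. *Fabp7* was nearest to *Col5a3*, *Lrrc4* and *Megf10* (r = 0.988, 0.986 and 0.985), whose log2 ratios were −0.43, −0.29 and −0.44. *Gpr17* was nearest to *Col5a3*, *Adgrb3* and *Ednrb* (r = 0.986, 0.985 and 0.985), with ratios of −0.43, −0.21 and −0.59. *Cdh19* was nearest to *Dlx1*, *Foxd3* and *Lsamp* (r = 0.993, 0.993 and 0.992), with −0.65, −1.17 and −0.57. *Adgrg6* was nearest to *Dhrs2*, *Foxa1* and *Mreg* (r = 0.995, 0.992 and 0.987), with −0.61, −0.52 and −0.51, though *Foxa1* was well above background in only 2 of 4 mutant pools. *Fabp7* and *Gpr17* thus shared *Col5a3*, and *Gpr17* and *Cdh19* each had a called gene of the Schwann cell precursor list among their nearest. *Adgrg6* shared none of its nearest genes with the others. Like *Adgrg6*, *Dhrs2*, *Foxa1* and *Mreg* had ratios farther from 0 on the arrays with the mutant in Cy5. How much of their likeness comes from the dyes was not tested.

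**Figure D5:**
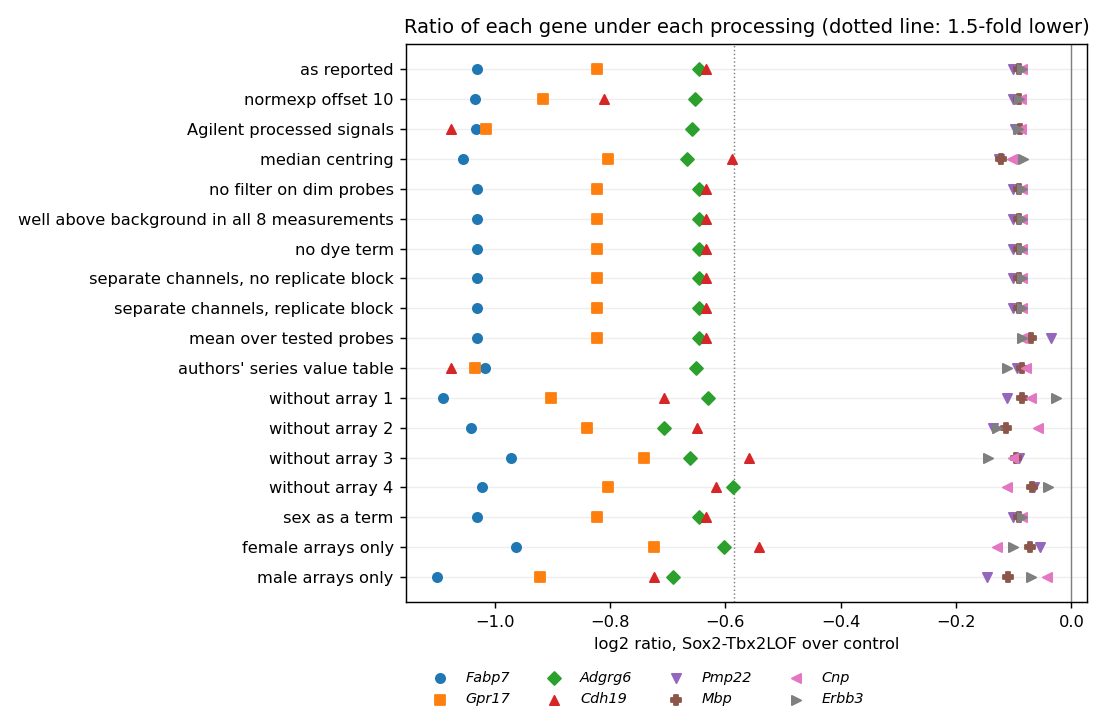
Log2 ratio of *Sox2-Tbx2LOF* over control (x axis) of each of the 8 genes as reported (top) and under each other processing, with each array left out and within the arrays of each sex (y axis). *Fabp7*, *Gpr17*, *Adgrg6* and *Cdh19* stay apart from the other 4 genes throughout, and *Cdh19* moves most.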

How the data were processed

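The values come from 4 Agilent 2-colour arrays, scanned together on 1 slide. Groups, sexes and dyes were taken from the labels. The authors deposited, per the file headers, raw spot intensity with its local background in both dyes and Agilent's processed intensity (Feature Extraction 10.7.3.1). They also deposited a table with a score per probe and array, used only as an alternative. Its values correlated with the ratios made here over the probes that stood for the genes tested (r between 0.916 and 0.943). Its normalization is not given in the sources used here. Probe positions (mm9) and gene names are those of the files.

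Background was corrected with normexp (offset 50), and a loess curve was removed from the ratios of each array, fitted without control and flagged spots. The remaining spots of each probe were averaged. A probe entered the test when 4 or more of its 8 signals, 1 per pool, stood well above background (27963 of 39429), and a gene was represented by its brightest such probe. Levels are the separate channels, scaled between arrays (Aquantile), and compare pools but not probes. Genes were tested with limma 3.58.1 in R 4.3.3, with genotype and dye direction as terms and Benjamini-Hochberg adjustment over 21042 genes. The script was tested on simulated data. Between 69.2% and 72.0% of the probes were well above background per array and dye, and the number of arrays limits the precision. Pools are independent per the methods, and the 2 pools of an array are paired by the hybridisation.

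The 8 genes, the gene lists and the rule for other named genes were chosen with earlier results of these data known. Named were all probes of the 8 genes, checks of the labels, defining Schwann cell precursor genes (some of which are not reported here), the called genes of each list (with the 2 largest ratios where at most 1 was called) and the 3 genes most like each called one. A few others were named after their values were seen. Alternatives were another offset, Agilent's signals, median centring, other filters, no dye term, separate channels, probe means, the authors' series table, each array left out and sex.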

Additional observations from a re-analysis of the deposited data

How the results depend on the processing

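*Fabp7*, *Gpr17* and *Adgrg6* were called lower in 16 of 16 fits, the reported one included, with log2 ratios from −0.97 to −1.09, −0.74 to −1.03 and −0.59 to −0.71. *Cdh19* was called in 15 of 16, the exception being the fit without array 3 (−0.56, against −0.71 to −0.62 without any other array), which left 3 of the 8 genes called. Agilent's processed signals and the authors' series table both gave *Cdh19* −1.08, and an offset of 10 gave −0.81. *Mbp*, *Erbb3*, *Pmp22* and *Cnp* passed in 0 of 16 fits, with adjusted p between 0.164 and 0.918 from limma. The array as a replicate block, or its absence, changed no call among the 8 genes. Among all genes, Agilent's signals gave 52 called higher and 117 lower, and 99 were lower with the series values, against 28 and 65 as reported. In all, 26 values of other named genes crossed a threshold. *Ednrb* was not called with the mean over its probes (−0.44) or without array 3 or 4 (−0.56 and −0.54), nor was *Dhrs2* without array 4 (−0.55) or without the dye term. *Foxa1* (−1.46), *Lfng*, *Lsamp* and *Mreg* were called with Agilent's signals. Values of *Cdh20* are also among the 26, with −1.76 under Agilent's signals. Since no mutant pool was well above background for *Cdh20*, that ratio is not a measured size and its calls are not used. The signs of *Sox10* and *Sox2*, both near 0, turned with median centring (−0.031 and −0.017) and ranged from −0.015 to 0.035 and from −0.073 to 0.096 with each array left out. The 2 residual degrees of freedom of the 4 arrays limit the precision of each test.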
